A study of Mus musculus with 4 samples.

Results

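Eomes, Neurog1, Neurog2, Insm1, Btg2, Gadd45g, Neurod1 and Sstr2 are transcripts of the intermediate progenitors of the developing neocortex and of the proneural program that leads to them. They were taken by gene symbol, and each symbol matched 1 gene of the 26433 in the count table. RNA from cerebral cortex was sequenced at embryonic day 15 (E15) in mice that express human SERPINA3 in the neural lineage and in wild-type (WT) controls, and the question was whether the 8 transcripts differed between the genotypes. The knock-in (cKI f/+) mice carried 1 Rosa26 allele with a CAG promoter, a floxed STOP cassette and 3×flag-hSERPINA3, together with a Nestin-Cre transgene, so that the human protein was made in Nestin-positive cells and their progeny. The founders were bred with B6D2F2 mice and their offspring with Nestin-Cre mice of C57BL/6 background, the controls were WT littermates, and the labels give C57BL/6 as the strain of both groups. Which of these elements the WT littermates carried, if any, is not stated. Each group had 2 libraries, KI2 and KI3 for cKI f/+ and WT1 and WT3 for WT, while the labels' protocol speaks of triplicates, and nothing in the labels says whether they came from separate embryos or litters. The p-values therefore measure only the spread between these libraries.

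In the neocortex, radial glia at the ventricular surface divide to renew themselves and to produce intermediate progenitors, which settle in the subventricular zone and divide there to make neurons. Proneural basic helix-loop-helix (bHLH) proteins bind E-boxes together with E-protein partners and start neuronal differentiation, while the Notch effectors of the Hes family and the Id proteins hold them back. Eomes, also called TBR2, is the defining transcription factor of the intermediate progenitor, and its expression follows that of Pax6 in radial glia and precedes that of Tbr1 in young glutamatergic neurons.

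The libraries held from 17423512 to 18119444 reads assigned to genes, and a count of 3 reads, taken as the detection floor, equalled 0.166 to 0.172 CPM, the read count scaled to the size of the library. All 8 genes stood far above it in every library and passed the filter on low counts, which kept 15786 genes. The dorsal telencephalic markers Emx1, Lhx2 and Neurod6 had 2908 to 3860, 10563 to 13362 and 17466 to 19586 reads in the 4 libraries, and the 3 hindbrain and midbrain markers found among 6 listed had at most 0.172 CPM in sum. Markers of ventral telencephalon and interneurons were present in both groups, at 240.4 and 252 CPM in sum in KI2 and KI3 and 246.4 and 309.9 CPM in WT1 and WT3. Of the 9 tested, Dlx2 was lower (log2 fold change -0.59) and Nkx2-1 higher (1.94) at an unadjusted p under 0.05 in edgeR, and Gsx2 and Isl1 had 2 and 1 reads in KI2 beside 21 to 40 in the other libraries. Xist reads numbered 13223 in KI2, 11882 in KI3 and 5 in WT1 as in WT3, while the Y-linked Ddx3y, Kdm5d and Uty had 0 reads in KI2 and KI3 and 214 to 951 in WT1 and WT3. Genotype therefore cannot be told apart from the sex of the embryos in any value below. Choroid plexus markers summed to 10.1 and 67.2 CPM in KI2 and KI3 and to 1.36 and 2.87 CPM in WT1 and WT3, with Ttr at 116, 956, 0 and 4 reads, 3 of the 4 tested markers at an unadjusted p under 0.05 and Kl at no more than 2 reads. Of the 5 tested meningeal markers 4 were likewise higher at that level, and the list summed to 21.6 and 19.4 CPM against 9.98 and 11.1 CPM. Cajal-Retzius markers summed to 474 and 312 against 346 and 320 CPM, with all 5 higher in cKI f/+ on average, 3 of them without overlap (Trp73, Lhx1 and Lhx5) and 1 at an unadjusted p under 0.05 (Lhx1). Blood markers summed to 493.5 and 366.5 against 491.1 and 522.4 CPM, with 6 of 7 lower on average and 3 of them at that level (Hba-a2, Hbb-bt and Alas2). Microglia markers summed to 26.05 and 29.02 against 32.94 and 31.56 CPM. Of these, 4 of 6 were lower on average and 2 higher, with 1 of the lower ones at that level (Cx3cr1). Endothelial markers summed to 92.79 and 103.6 against 104.4 and 102 CPM, with 4 of 6 lower on average and 0 at that level. Over all tested genes, 2.26% were higher and 2.34% lower at that level, and 17.3% had both cKI f/+ libraries above both WT libraries. How far the marked tissues and cells entered the values of the 8 genes was not tested.

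No member of the group differed between the genotypes at an adjusted p under 0.05 in edgeR's quasi-likelihood test. That threshold was passed by 19 of the 15786 tested genes (0.12%), of which 11 were higher in cKI f/+ (0.0697%) and 8 lower (0.0507%), so that 0 of 8 is close to the share over all genes. At an unadjusted p under 0.05 there was 1 member, Neurog1, where 4.6% of all tested genes passed. DESeq2 also called 0 members and had 0 at an unadjusted p under 0.05, and edgeR's likelihood ratio test called 0 with 1 at that level. The log2 fold change was above 0 for 5 members and below 0 for 3, against 51.2% of all tested genes above 0 and 48.8% below. The median over the members was 0.033, beside 0.0043 over all tested genes, and it was 0.065 without KI2 and 0.082 without WT1. Both cKI f/+ libraries lay above both WT libraries for 4 members (Neurog1, Neurog2, Eomes and Gadd45g), a pattern seen in 17.3% of all tested genes, and both lay below for 0 members, where the share was 16.9%, so that 4 of 8 members stood without overlap in either direction beside 34.1% of all tested genes. These shares were counted without a test, since the members share libraries. In bulk RNA, fewer cells of a type and less RNA per cell cannot be told apart.

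**Figure D1:**
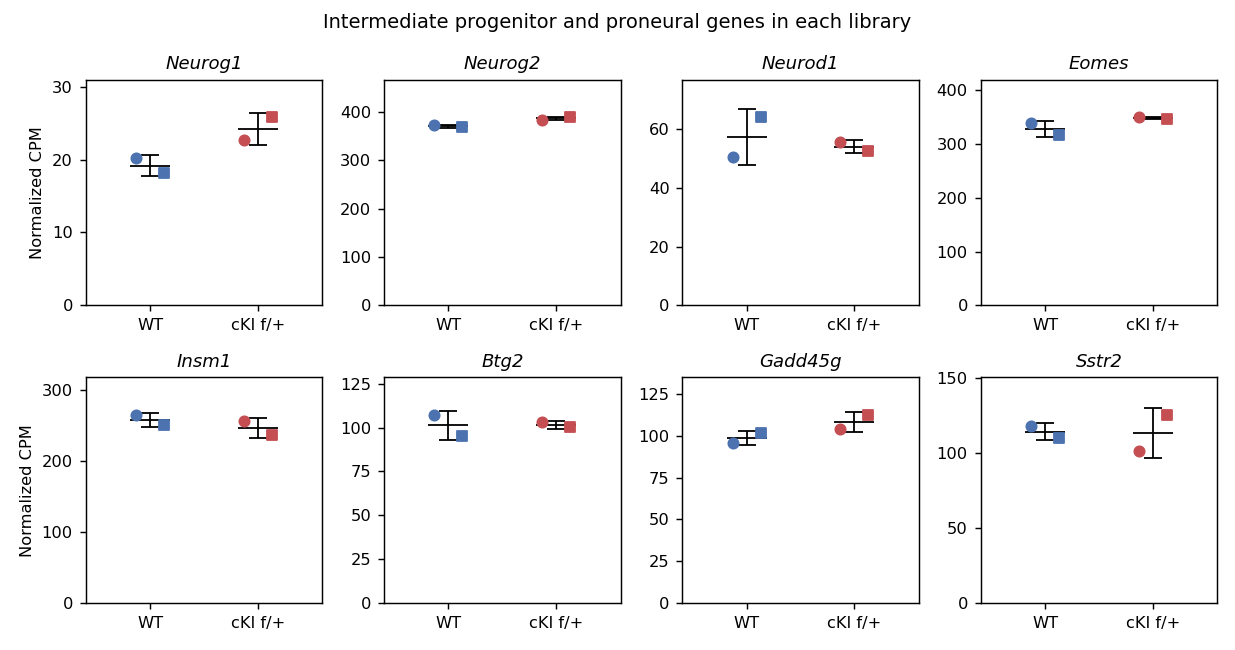
Normalized CPM of the 8 genes in each library, with WT in blue and cKI f/+ in red, circles for WT1 and KI2 and squares for WT3 and KI3, and black bars for the mean ± SD of 2 libraries; each panel has its own axis from 0. The red points lie above the blue ones for Neurog1, Neurog2, Eomes and Gadd45g, and the colours overlap for the other 4 genes.

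What the genes share in sequence was read from the promoters of RefSeq (GRCm38.p6), which hold 250 bases before the start of transcription and 50 after it, and 7 of the 8 members matched one. Insm1 had none. The last 100 bases before the start are shown, on the strand of the gene, for the members on which the description turns: Eomes, Neurog2 and Gadd45g have the letters TATANAA close to their start, Neurog1, the member with the lowest p, has not, and Sstr2 has TGACGTCA, the cAMP response element. Neurod1, whose groups overlapped, also has TATANAA close to its start and is not shown. A link between these letters and the differences between genotypes was not tested. Capitals mark TATANAA and TGACGTCA.
Eomes, chr9:118478089-118478188, plus strand: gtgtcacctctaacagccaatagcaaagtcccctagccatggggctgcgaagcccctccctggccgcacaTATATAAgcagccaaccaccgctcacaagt
Neurog2, chr3:127633036-127633135, plus strand: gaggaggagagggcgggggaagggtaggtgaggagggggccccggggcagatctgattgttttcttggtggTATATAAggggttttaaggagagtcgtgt
Gadd45g, chr13:51846575-51846674, plus strand: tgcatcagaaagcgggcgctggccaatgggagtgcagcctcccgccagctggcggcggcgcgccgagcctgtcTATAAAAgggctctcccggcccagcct
Neurog1, chr13:56252181-56252280, minus strand: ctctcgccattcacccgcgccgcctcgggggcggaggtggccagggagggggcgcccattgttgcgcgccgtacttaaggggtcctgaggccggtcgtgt
Sstr2, chr11:113619227-113619326, plus strand: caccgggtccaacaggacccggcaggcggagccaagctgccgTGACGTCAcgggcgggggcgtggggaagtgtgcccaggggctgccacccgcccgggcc

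TATANAA was present in 4 of the 7 windows, and in 11.8% of the windows of 27025 genes. In each of the 4 it began shortly before the start, at -30 in Eomes, -29 in Neurog2, -27 in Gadd45g and -31 in Neurod1, counted from the start of transcription. Among all windows 1.67% had it on the strand of the gene between -40 and -21. These positions count from the RefSeq start. The Neurod1 span given below comes from GENCODE and reaches to 79456751. TATANAA of Neurod1, between 79456637 and 79456736, lies inside that span. TGACGTCA was present in 2 of 7, at -166 in Btg2 and -58 in Sstr2, beside 1.88% of all windows. These motifs were chosen after the windows had been read, so the shares are a description. An E-box, CANNTG, was present in 3 of 7 and in 72.1% of all windows, 1 each in Neurog1 and Neurod1 and 3 in Gadd45g. The neurogenin-type E-box CAGATG and the T-box element GGTGTGA were in 0 of 7 windows, and in 17.2% and 3.96% of all windows. Both strands were searched. CANNTG includes CAGATG and CAGCTG (16.1% of all windows).

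Neurog1 and Neurog2 are the neurogenins, proneural bHLH factors that commit dorsal telencephalic progenitors to the glutamatergic fate. Neurog1 (ENSMUSG00000048904, chr13:56250478-56252163 of GRCm38, minus strand, 1 exon) had 399 and 468 reads in KI2 and KI3 and 356 and 317 in WT1 and WT3. Its normalized level was 24.2 ± 2.25 CPM in cKI f/+ and 19.2 ± 1.41 CPM in WT (SD, n = 2 libraries each), and the groups did not overlap. This is a log2 fold change of cKI f/+ over WT of 0.34 with a standard error (SE) of 0.12, or 1.26-fold with a 95% interval of 1.04 to 1.53. The edgeR adjusted p was 0.969, ranging from 0.638 to 1 over the alternatives, and the unadjusted p was 0.0216, which ranked 306 of 15786. The size of the change was larger than that of 86.5% of tested genes. The unadjusted p of edgeR rose to 0.182 without KI3 and to 0.0945 without WT3, and was 0.0609 in DESeq2. Neurog1 did not pass the test.

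Neurog2 (ENSMUSG00000027967, chr3:127633135-127635631, plus strand), the more abundant of the pair, had 6771 and 7054 reads in KI2 and KI3 and 6574 and 6423 in WT1 and WT3. Its level was 387 ± 3.47 CPM in cKI f/+ and 371 ± 2.88 CPM in WT (SD, n = 2), so that the groups did not overlap and were separated by 11.6 CPM. With a log2 fold change of 0.06 (SE 0.07, 95% interval -0.10 to 0.22) and an edgeR adjusted p of 0.990, the difference did not pass the test. The interval leaves out the 0.34 of Neurog1, but it overlaps the interval of Neurog1, 0.06 to 0.61. A difference between the pair was not tested.

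Neurod1 (ENSMUSG00000034701, chr2:79452521-79456751, minus strand) is a bHLH factor that acts after the neurogenins, in late progenitors and newborn neurons. It had 981 and 952 reads in KI2 and KI3 and 892 and 1117 in WT1 and WT3. The WT libraries were the lowest and the highest of the 4, and the spread within WT, 57.3 ± 9.57 CPM, was wider than the difference from cKI f/+ at 54.1 ± 2.23 CPM (SD, n = 2). Its log2 fold change was -0.08 (SE 0.12, 95% interval -0.35 to 0.18) with an edgeR adjusted p of 0.993, and it was -0.24 with an unadjusted p of 0.0342 without WT1 and 0.10 without WT3. Neurod1 lies within the span of Cerkl on the same strand and shares 11.2% of its stretches of 31 bases with other genes, with Cerkl more than with any other, and Cerkl had 2, 9, 2 and 5 reads.

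Eomes (ENSMUSG00000032446, chr9:118478212-118486132, plus strand) had 6164 and 6292 reads in KI2 and KI3 and 5985 and 5538 in WT1 and WT3. Both cKI f/+ libraries were higher than both WT libraries, by 7.86 CPM at the nearest, with means of 348 ± 1.89 and 329 ± 15.2 CPM (SD, n = 2). For Eomes the log2 fold change was 0.08 (SE 0.07, 95% interval -0.08 to 0.25) with an edgeR adjusted p of 0.977, so the difference did not pass the test. An antisense gene, Gm33460, overlaps its end with 59 to 71 reads, and whether strand was used in counting is not given in the sources used here.

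Insm1 (ENSMUSG00000068154, chr2:146221921-146225020, plus strand), a zinc finger factor that promotes the formation of basal progenitors, had 4508, 4284, 4666 and 4362 reads in KI2, KI3, WT1 and WT3. The groups overlapped, KI3 being the lowest and WT1 the highest. The means were 246 ± 13.8 CPM in cKI f/+ and 257 ± 10.03 CPM in WT (SD, n = 2), and the log2 fold change was -0.06 (SE 0.08, 95% interval -0.24 to 0.11) with an edgeR adjusted p of 0.990. Insm1 thus had the opposite sign to Eomes, and neither passed the test.

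Btg2 (ENSMUSG00000020423, chr1:134075170-134079120, minus strand), an antiproliferative gene that marks progenitors about to make neurons, had 1816 and 1813 reads in KI2 and KI3 and 1890 and 1660 in WT1 and WT3. The cKI f/+ libraries lay between the WT libraries. Its log2 fold change was 0.005 (SE 0.08, 95% interval -0.18 to 0.19), with an edgeR adjusted p of 0.997 and a sign that turned in 4 alternatives. Gadd45g (ENSMUSG00000021453, chr13:51846678-51848468, plus strand), a growth arrest gene of the Gadd45 family expressed in differentiating progenitors, had 1834 and 2037 reads in KI2 and KI3 and 1685 and 1767 in WT1 and WT3. Its groups did not overlap, at 108 ± 5.87 and 98.5 ± 4.16 CPM (SD, n = 2). On the log2 scale the change was 0.14 (SE 0.08, 95% interval -0.04 to 0.32) with an edgeR adjusted p of 0.969.

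Sstr2 (ENSMUSG00000047904, chr11:113619342-113626028, plus strand) encodes a somatostatin receptor of the G protein-coupled family and is the only membrane receptor of the group. It had 1784 and 2269 reads in KI2 and KI3 and 2081 and 1918 in WT1 and WT3. KI2 was the lowest and KI3 the highest of all libraries, and the SD of the cKI f/+ group, 16.9 CPM around 113 CPM, was the widest among the 8 genes. Its log2 fold change was -0.01 (SE 0.10, 95% interval -0.25 to 0.23) with an edgeR adjusted p of 0.997. Slc39a11 spans Sstr2 on the opposite strand with 608 to 722 reads.

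**Figure D2:**
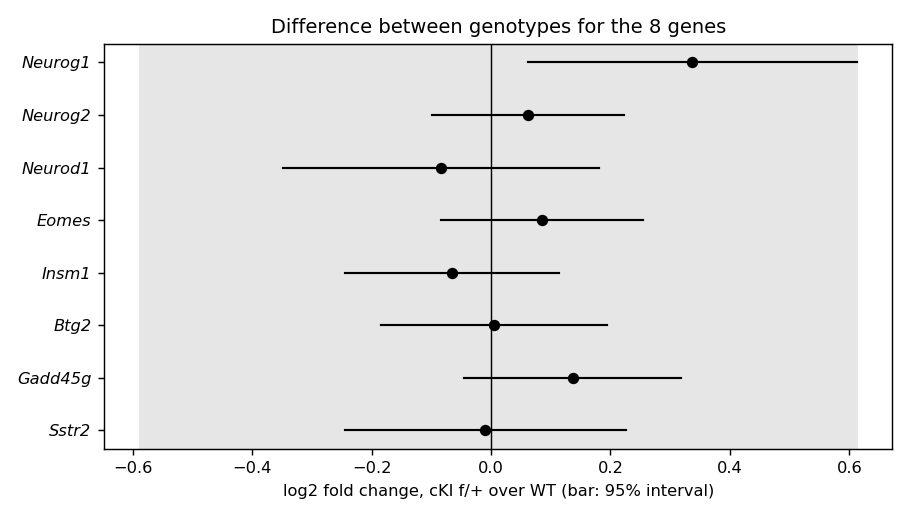
Shown is the log2 fold change of cKI f/+ over WT (x axis) for each gene (y axis), with the 95% interval from the edgeR fit as a bar; the grey band holds the central 95% of all tested genes, from -0.588 to 0.612. The interval of Neurog1, 0.06 to 0.61, is the only one of the 8 that does not include 0, and all 8 values lie inside the band.

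Per length the 8 genes spanned 13.2-fold. On the scale of CPM per kilobase of exon, Neurog2 was the highest, with a mean of 170 over the 4 libraries, and Neurog1 the lowest, with 12.9. Gadd45g (88.1), Eomes (81.5) and Insm1 (81.2) came next, and the ranges of neighbours among these 3 overlapped, so that their order differed between libraries. They were followed by Sstr2 (53.0), Btg2 (37.0) and Neurod1 (20.4), whose ranges did not overlap with those of their neighbours. Neurog2, Sstr2, Btg2, Neurod1 and Neurog1 kept ranks 1, 5, 6, 7 and 8 in all 4 libraries. The use of the longest transcript in place of all exons gave the same 8 ranks.

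**Figure D3:**
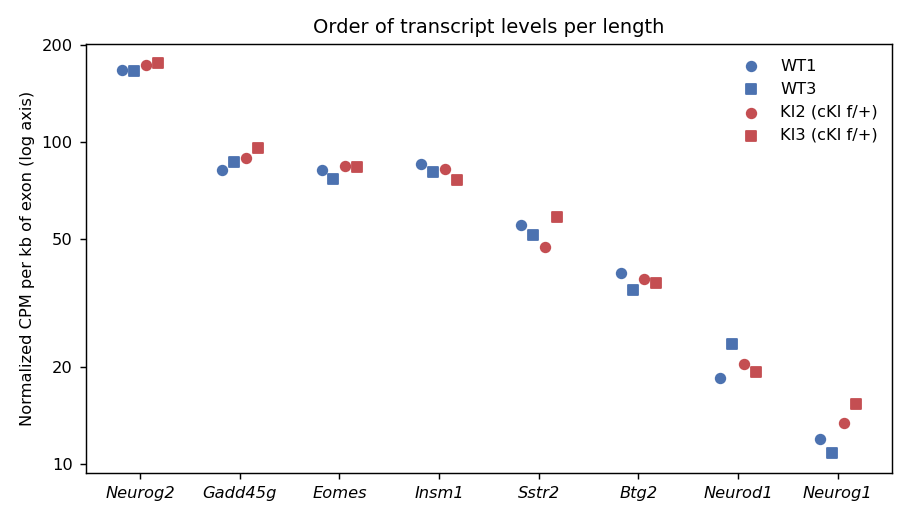
Normalized CPM per kilobase of exon (y axis, log scale) of the 8 genes (x axis), ordered by their mean, in WT (blue) and cKI f/+ (red) libraries. Neurog2 stands highest at 166 to 175 and Neurog1 lowest at 10.8 to 15.3, and the points of Gadd45g, Eomes and Insm1 overlap.

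Summed over the 8 genes, KI2 and KI3 held 24257 and 25169 reads and WT1 and WT3 held 24129 and 23102, or 0.137%, 0.139%, 0.137% and 0.133% of each library. WT1 and KI2 were alike in this sum, and WT3 was the lowest. When each gene was set against its own mean over the 4 libraries, 7 of the 8 were above it in KI2, 5 in KI3, 4 in WT1 and only 1 in WT3, beside 49.5% to 51.9% of all tested genes per library. The gene above its mean in WT3 was Neurod1, at 0.21 on the log2 scale. Neurog1 ran from -0.24 in WT3 to 0.26 in KI3, and Neurog2 stayed within -0.04 to 0.04.

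**Figure D4:**
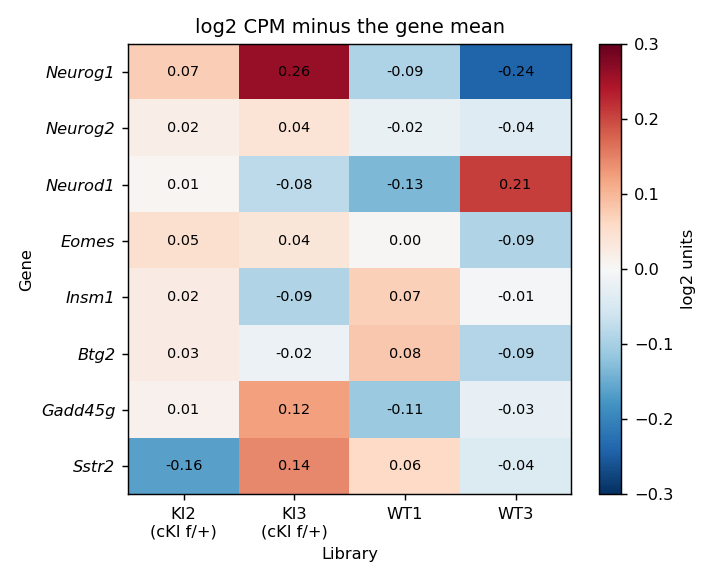
Difference of each gene's log2 CPM from its own mean over the 4 libraries, with genes as rows and libraries as columns; red is above the mean and blue below. The WT3 column is below 0 for every gene except Neurod1 (0.21), and the largest values are those of Neurog1 in KI3 (0.26) and WT3 (-0.24).

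The genes outside the group whose profile was nearest to the mean profile of the members were Casc3, Aldoc and Mrps11, at a root mean square distance of 0.003, 0.005 and 0.005 log2 units over the 4 libraries. The farthest member, Neurog1, was at 0.153, and 9991 tested genes (63.3%) were at least as near, so the profile over 4 libraries is not particular to the group. In the gene ontology terms listed in the table, Neurog1, Neurog2 and Neurod1 shared E-box binding with 32 genes in all and cell fate commitment with 72, while Insm1, Btg2 and Sstr2 shared negative regulation of cell proliferation with 362.

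Ratios within a library, which need no scaling between libraries, set the progenitor genes against the stages before and after them. The log2 ratio of Eomes to Pax6 reads was 1.47 and 1.40 in KI2 and KI3 and 1.21 and 1.28 in WT1 and WT3, a difference of 0.19. The log2 ratio of Eomes to Tbr1 reads was -0.42 and -0.35 against -0.71 and -0.59, a difference of 0.27. For both ratios the cKI f/+ libraries were the higher pair. The log2 ratio of Neurog2 to Hes5, the Notch effector, was 4.79 and 4.64 against 4.85 and 4.92, lower by a log2 difference of -0.17, and of -0.097 without KI3. The two-sided exact permutation p was 0.333 for each of the 3 ratios, also after adjustment over the 3, which is the smallest that 2 against 2 libraries allow. The levels behind the ratios did not pass the test either: Pax6 had 129 CPM in cKI f/+ and 139 in WT (log2 fold change -0.11, SE 0.08), and Tbr1 had 455 and 518 CPM (-0.19, SE 0.09). Hes5 had 14.7 and 12.5 CPM (0.23, SE 0.14).

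Other genes of the same pathways were described from fixed lists, and edgeR called 0 genes of any of these lists at an adjusted p under 0.05. Among 22 other genes of intermediate progenitors and newborn neurons, 2 were higher and 4 lower at an unadjusted p under 0.05, beside 2.26% and 2.34% of all tested genes, and the median log2 fold change was 0.05. The higher ones were Nhlh1 (0.26, SE 0.09) and Nhlh2 (0.32, SE 0.11), bHLH genes of newborn neurons. The lower ones were Elavl4, Unc5d, Cux2 and Pou3f2. Pou3f2, a POU factor of upper-layer neurons and their progenitors, had 88.7 CPM in cKI f/+ and 131 in WT (log2 fold change -0.56, SE 0.14), with an unadjusted p of 0.00257 and an adjusted p of 0.663 in edgeR.

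Among 15 partners and inhibitors of the proneural proteins, 2 were higher and 0 lower at that unadjusted level, with a median of 0.08. They were Hey2, a Notch effector (log2 fold change 0.49, SE 0.19, unadjusted p 0.0263 in edgeR), and Id3, an inhibitor of bHLH dimers (0.39, SE 0.16). The lowest p on the other side was that of Id2, also an inhibitor, at -0.18 (SE 0.10, unadjusted p 0.0929 in edgeR). The E-protein Tcf4 and the Notch effector Hes1 had log2 fold changes of -0.09 (SE 0.07) and 0.08 (SE 0.09). Of the 9 listed relatives of the neurogenins 6 were tested, and the 2 that were higher at that level were again Nhlh1 and Nhlh2, while Neurod4 had -0.43 (SE 0.24), Neurod2 -0.06 and Neurod6 -0.09.

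Of 16 radial glia genes 1 was higher at an unadjusted p under 0.05, Emx2 at 0.18 (SE 0.08), and 0 were lower, the lowest p being that of Ptprz1 at -0.29 (SE 0.13). Their median was 0.03. Of 13 genes of postmitotic cortical neurons 0 passed that level in either direction. Of these, 10 had a log2 fold change below 0 and 3 above it, and the median was -0.13, with Tbr1 at -0.19 and Rbfox3 at 0.11 (SE 0.08). Of 9 genes related to cell cycle exit 6 had a log2 fold change above 0 and 3 below it. At an unadjusted p under 0.05 in edgeR 1 was higher, Cdkn1a, and 0 were lower. Cdkn1a encodes an inhibitor of cyclin-dependent kinases and had 14.8 CPM in cKI f/+ and 9.54 in WT (log2 fold change 0.64, SE 0.24). Cdkn1b was at -0.12 (SE 0.07), and the paralogs of Gadd45g, Gadd45a and Gadd45b, had 2.65 and 3.22 CPM in cKI f/+ and 2.85 and 3.11 CPM in WT. Of 8 listed paralogs and ligands of Sstr2, Insm1 and Eomes 5 were tested and 0 passed the unadjusted level, with Sst, the ligand of the receptor, at 0.18 (SE 0.13).

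**Figure D5:**
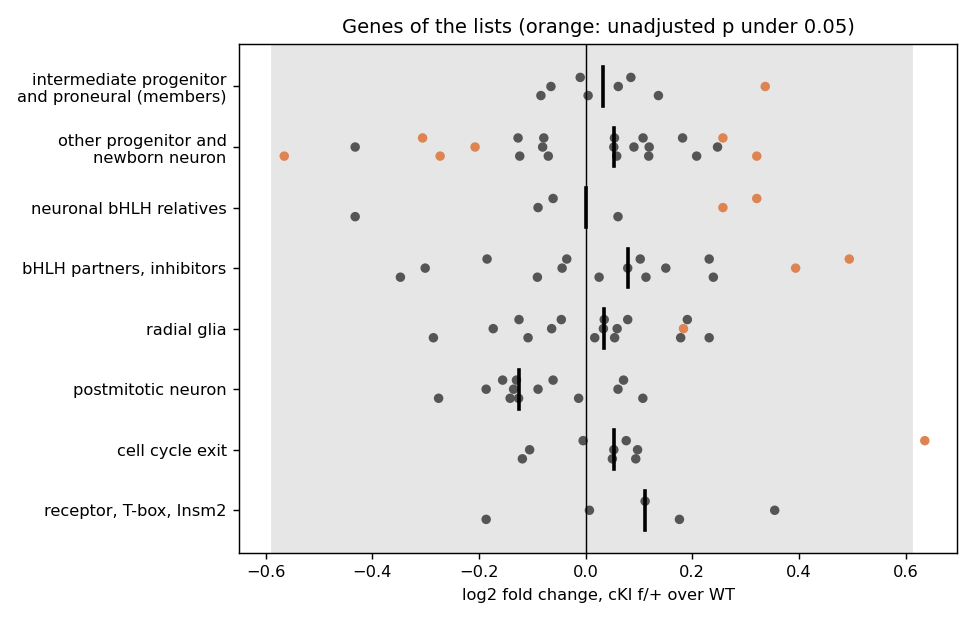
Shown is the log2 fold change of cKI f/+ over WT (x axis) of every tested gene in the 8 members and in the lists of related genes (y axis), 1 point a gene, orange where the unadjusted p was under 0.05, with a black line at the median of each list; the grey band holds the central 95% of all tested genes. The medians lie between -0.13 for postmitotic neuron genes and 0.11 for the paralogs, and the point farthest to the right is Cdkn1a at 0.64.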

How the data were processed

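The labels name embryo cortex as the source of the total RNA, while the paper's methods name telencephalic tissue. The RNA was extracted with TRIzol and sequenced on the Illumina HiSeq platform. A table of unnormalized counts of reads for each gene was deposited; the submitters' processing notes name TopHat2 2.0.12, Bowtie2 2.2.3 and HTSeq 0.6.0. These notes name mm9, while 24486 of 26433 genes have GRCm38 positions of GENCODE M21, which were used here. Columns were assigned to a genotype by name, since KI3 and WT1 match no labelled sample number. The deposited table also holds the authors' own comparison, which was not used.

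Counts were fitted over the whole table in R 4.3.3 with edgeR 4.0.16 (filterByExpr, TMM, quasi-likelihood test, Benjamini-Hochberg adjustment over 15786 genes, threshold 0.05). The SE is the log2 fold change divided by the square root of F. Normalized CPM were divided by the union of exons for levels per length. Scripts were tested on simulated data. Alternatives were DESeq2 1.42.0, the likelihood ratio test, other normalizations, filters and thresholds, a fit without the sex chromosomes, and each of the 4 libraries left out.

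The members and lists were chosen with earlier results of these data known. All members were named, with the gene of lowest p in each direction of each list, the partner genes needed beside them and the 3 nearest profiles. Nhlh2, Id3, Elavl4, Unc5d, Cux2, Gadd45a, Gadd45b and the marker genes were named after their values were seen. Some genes of the lists are not reported here by name.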

Additional observations from a re-analysis of the deposited data

How the results depend on the processing

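No alternative called a member, at an adjusted p under 0.1 included. The order of levels per length and the sign of the member median were kept in every alternative run for them, though not the size of the median. The 3 ratios also kept their sign, but this was fixed in advance. Their groups did not overlap, so leaving out 1 library could not turn the sign, and scaling between libraries largely cancels within a ratio. With 1 library left out, the median ran from 0.035 to 0.082, the log2 ratio difference from -0.241 to -0.097 for Neurog2 over Hes5, from 0.157 to 0.226 for Eomes over Pax6 and from 0.206 to 0.331 for Eomes over Tbr1. Over all genes, the 19 calls became 54 with the likelihood ratio test, 11 without the X and Y chromosomes and 6 when every library had to hold 10 counts, and 46 to 71 when 1 library was left out, where the lone library is assumed to vary like the other group. The members at an unadjusted p under 0.05 numbered 0 in DESeq2 and 0 to 2 when 1 library was left out. They were 0 without KI3 and 0 without WT3, and without WT1 Neurod1 joined Neurog1. The log2 fold change of Btg2 was -0.001 with library totals only and with at least 1 count in total. With 1 library left out it ran from -0.076 to 0.093 for Btg2, from -0.176 to 0.124 for Sstr2 and from -0.244 to 0.098 for Neurod1, so that the sign of these 3 rests on single libraries. It kept its sign for the other 5 members: from 0.04 without WT3 to 0.134 without WT1 for Eomes, from 0.076 without KI3 to 0.181 without KI2 or WT3 for Gadd45g, from -0.134 without KI2 to -0.013 without KI3 for Insm1, from 0.048 to 0.07 for Neurog2 and from 0.234 to 0.418 for Neurog1. For Eomes, Gadd45g, Neurog2 and Neurog1 the groups did not overlap, so leaving out 1 library could hardly turn the sign. Of these 5 members only Insm1 had overlapping groups. The causes were not tested.

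The labels of the groups share no replicate number and do not give litters, so the libraries were not paired. With 2 libraries a group, the 95% intervals of the members rest on a spread borrowed from all genes. They are not limits of detection, since calls were made after adjustment over 15786 genes. The interval of Neurog1, 0.06 to 0.61, left out 0, yet its adjusted p was 0.969 in edgeR. In DESeq2 its log2 fold change was 0.335 with an adjusted p of 0.999. The smallest change that could have been called here was not computed.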
